A study of Mus musculus with 9 samples.

Results

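The PGC1 coactivators and the regulators of mitochondrial biogenesis around them were read in tumours of a mouse synovial sarcoma model and in normal skeletal muscle. The group was named as 9 genes, Ppargc1a, Ppargc1b, Esrra, Esrrb, Esrrg, Ppara, Ppard, Tfam and Nrf1, and its members were the probe sets whose only annotated symbol was one of them. This gave 19 probe sets of 8 genes, out of 25581 probe sets of 14440 genes with a single symbol. Expression of Esrra, the estrogen-related receptor alpha, was not analysed here.

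The tumours were 5 arrays from mice labelled MYF-5 CRE/SSM2. The series is titled as a model of the SYT-SSX fusion, the oncoprotein of synovial sarcoma, and MYF-5 is a transcription factor of muscle precursors. Tumour 1 is labelled CC23, tumour 2 CC17-B, tumour 3 CC17-A, tumour 4 SSM5 and tumour 5 SSM4, so tumours 2 and 3 share a number. The 4 muscle arrays, titled wild type, were hind limb (muscle 1), intercostal (muscle 2), forelimb (muscle 3) and a further hind limb sample (muscle 4). Genotype and tissue therefore differ together, and age, strain and treatment are not given in the labels. The titles give the tumours different mouse labels, but do not say whether CC17-A and CC17-B, or the muscle samples, came from separate animals. For those the spread behind the p-values may be technical in part. Precision is limited by how few arrays there are.

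PGC-1 alpha (Ppargc1a) and PGC-1 beta (Ppargc1b) bind no DNA themselves. They attach to transcription factors such as the estrogen-related receptors, the PPARs and NRF1, and raise the transcription of genes for fatty acid oxidation and the respiratory chain. In skeletal muscle PGC-1 alpha is known for its induction by endurance exercise. NRF1, nuclear respiratory factor 1, acts on nuclear genes of the respiratory chain and on Tfam, whose product packs mitochondrial DNA and starts its transcription.

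Promoters of the 3 genes with non-overlapping groups below, which all read lower in tumours, are shown because factors of the same network are known to bind such elements. Each is the 250 bases before a RefSeq gene start on GRCm38.p6, written 5′ to 3′ on the gene's strand. Capitals mark the core of the cAMP response element (TGACG, or CGTCA for the other strand) for Ppargc1a, the palindromic NRF1 motif for Ppara and a motif of GABP, also called NRF2 (CCGGAAGT), for Tfam.
Ppargc1a promoter, chr5:51567726-51567975, - strand: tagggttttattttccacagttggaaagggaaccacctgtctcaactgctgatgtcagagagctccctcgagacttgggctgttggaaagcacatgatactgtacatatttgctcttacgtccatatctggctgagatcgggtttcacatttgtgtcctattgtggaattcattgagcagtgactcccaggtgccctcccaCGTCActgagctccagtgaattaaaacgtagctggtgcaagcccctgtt
Ppara promoter, chr15:85735526-85735775, + strand: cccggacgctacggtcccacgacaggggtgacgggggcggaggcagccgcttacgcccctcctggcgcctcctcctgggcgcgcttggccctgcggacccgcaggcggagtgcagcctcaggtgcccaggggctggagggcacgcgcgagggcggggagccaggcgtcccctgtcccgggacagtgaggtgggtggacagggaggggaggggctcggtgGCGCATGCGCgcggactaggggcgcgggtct
Tfam promoter, chr10:71238045-71238294, - strand: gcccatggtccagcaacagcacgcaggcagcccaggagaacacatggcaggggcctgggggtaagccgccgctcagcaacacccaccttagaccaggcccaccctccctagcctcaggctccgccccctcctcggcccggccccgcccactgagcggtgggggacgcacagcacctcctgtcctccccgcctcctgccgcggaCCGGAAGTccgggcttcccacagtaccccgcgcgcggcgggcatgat

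Each motif was searched on both strands of the 250 bases in all 32851 RefSeq windows of that length. Counts for the group cover 13 windows of 8 of the genes, with Esrra among them and Ppargc1b left out. The NRF1 motif was in 0.782% of all windows and, among those 8 genes, in Ppara alone. The GABP motif was in 2.88% of all windows and, among the 8 genes, in Tfam alone. The core TGACG, which is part of the full element TGACGTCA, was in 17.8% of all windows and in those of Ppargc1a, Ppara and Esrrb. The full element (1.55% of all windows) and the element of the estrogen-related receptors, TCAAGGTCA (0.387%), had 0 matches in the 13 windows. A MEF2 motif, CTA and TAG around 4 bases of any kind, was in 3.20% of all windows and in 1 window of Esrrg. A match describes letters and is not a site.

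Values are MAS5 signals scaled to a common trimmed mean, called scaled intensity. An array's floor, the 40th percentile of its values, lay between 96.5 and 137.4. Taken as a sum, skeletal muscle markers stood far lower in the tumours but not at 1 level. The sum of 16 markers was 133708, 46933, 8626, 1003 and 164332 in tumours 1 to 5, against 641100 to 870455 in the muscles. In tumour 4, 15 of the 16 were below the floor, including Ckm, the muscle creatine kinase (12.6), and Acta1, the skeletal actin (32.7). Tumours 1 and 5 held the most muscle transcript, at 16.7% and 20.6% of the muscle mean sum. Single markers differed: Myh1, a myosin heavy chain, read 38837 in tumour 1, 89.6% of its muscle mean. It was not called over the groups (limma adjusted p = 0.0745). In bulk tissue, fewer cells of a type and less RNA per cell cannot be told apart.

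Muscle 2 stood apart from the other muscle arrays by genes of brown fat. Ucp1, the uncoupling protein of brown fat, was at 7.00, 563, 8.07, 3.87 and 4.02 in tumours 1 to 5, against 35.5, 18014, 69.0 and 11.2 in muscles 1 to 4. Cidea, another brown fat gene, was at 874 in tumour 2 and at most 115 in the other tumours, against 10584 in muscle 2 and at most 18.0 in the other muscles. The sum of the 11 fat cell markers in the table ran from 2022 to 43288 in tumours, against 211465 in muscle 2 and 75042 to 83108 in the other muscles. In those other muscles Cox8b, a respiratory subunit of brown fat that muscle also expresses, outweighed the other markers together. Cox8b read 34.7 to 5780 in tumours and 40767 to 44772 in muscles. Without Cox8b the sum was 2150, 28624, 1759, 20024 and 37508 in tumours 1 to 5, against 167571 in muscle 2 and 39840, 34275 and 32495 in muscles 1, 3 and 4. Tumour 5 then lay between the ordinary muscles. Because brown fat is rich in PGC1 and PPAR transcripts, each member's log2 fold change is also given without muscle 2.

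**Figure D1:**
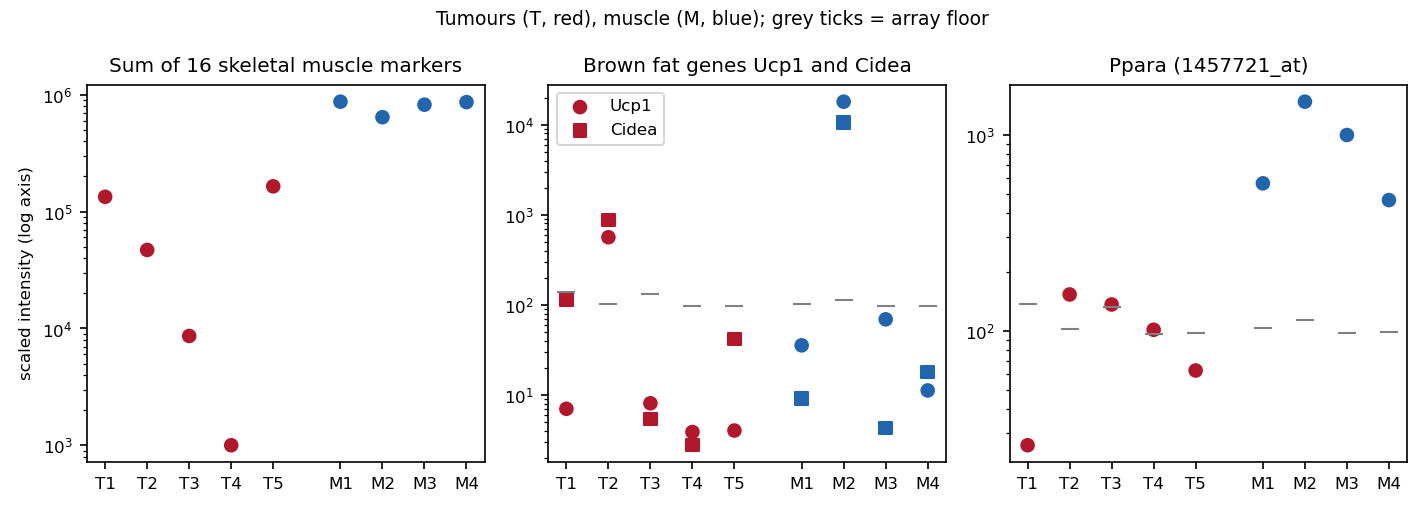
Scaled intensity on a log axis for each tumour (T1 to T5, red) and muscle (M1 to M4, blue) array: the sum of 16 skeletal muscle markers, the brown fat genes Ucp1 and Cidea, and Ppara. Tumour 4 has a marker sum of 1003, Ucp1 and Cidea stand above the floor (grey ticks) in tumour 2 and muscle 2, and Ppara is highest in muscle 2.

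The comparison asks how the tumours differ from the normal tissue in this network. Of the 8 genes, 5 were lower in tumours, Ppara, Ppargc1a, Ppargc1b, Esrrg and Tfam, 0 were higher, and 3 were not called. Calls rest on limma with an adjusted p under 0.05, Benjamini-Hochberg over all 10650 genes tested. All 8 genes passed the filter on dim genes. Of all genes tested 18.0% were called lower and 30.1% higher. The groups did not overlap for 3 of the 8 genes, against 15.1% of all genes that were lower without overlap. The same 5 genes had an unadjusted p under 0.05, and 0 had one while higher. A two-sided exact permutation test over all splits of the 9 arrays put the same 5 genes under 0.05. The shares of all genes under these thresholds are not given here. Both counts rest on the same 9 arrays and add no independent support.

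The median log2 fold change of the 8 genes, tumour minus muscle, was −0.82, beside 0.23 for all genes. Higher calls made up 62.6% of all calls as reported, 52.1% after median centring of the arrays and 72.7% after housekeeping centring, which uses the ribosomal and proteasome genes. All genes had a median of 0.23, 0.05 and 0.43 under these scalings. Under housekeeping centring 3 of the 8 genes remained called lower, Ppara, Ppargc1a and Ppargc1b, where 13.3% of all genes were called lower.

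**Figure D2:**
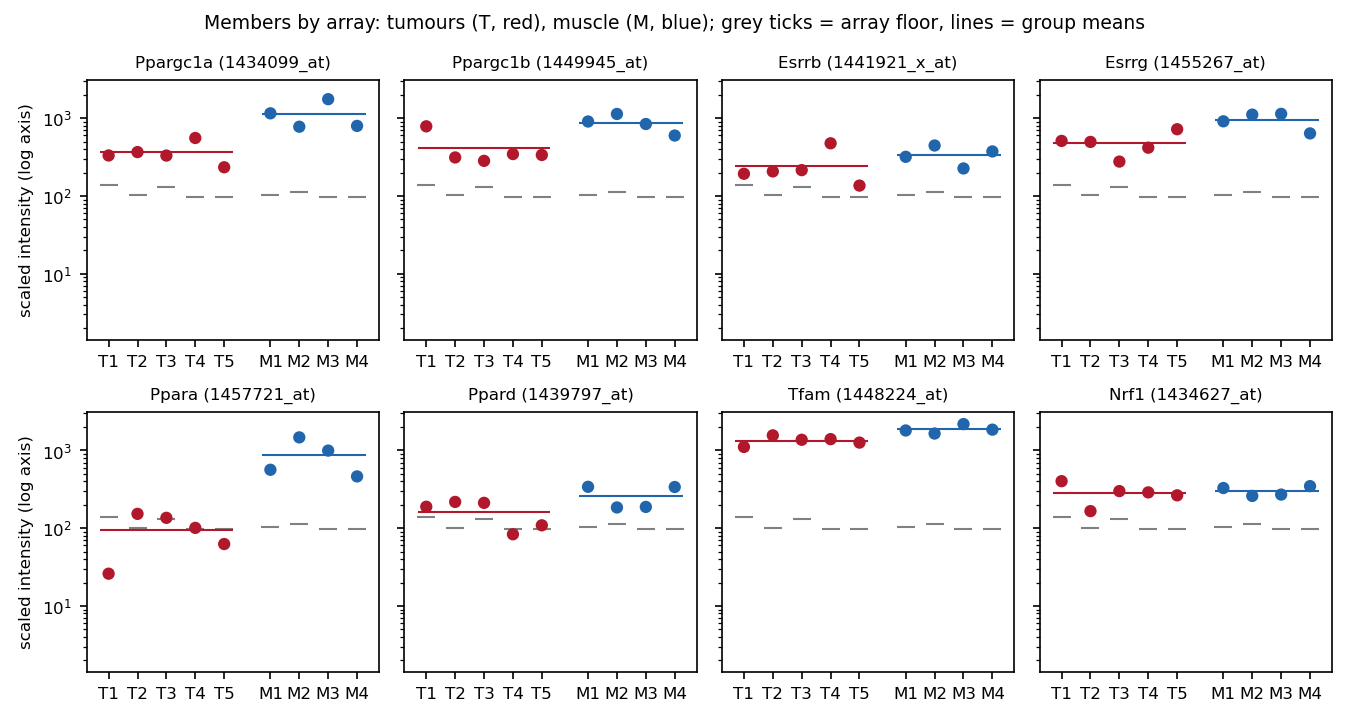
Scaled intensity (log axis) of the probe set that represents each gene, on tumour (T1 to T5, red) and muscle (M1 to M4, blue) arrays, with group means as lines and array floors as grey ticks. Ppara separates the groups most, Ppargc1a and Tfam separate them without overlap, and Nrf1 lies at the same level in both.

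Ppargc1a, the coactivator most responsive to exercise and cold, stood at 32.4% of its muscle mean in the tumours. Its probe set 1434099_at read 332, 367, 331, 557 and 234 in tumours 1 to 5, against 1157, 778, 1759 and 797 in muscles 1 to 4. Every tumour lay below every muscle. Tumours averaged 364 ± 119 (SD, n = 5) against 1123 ± 459 for muscles (SD, n = 4). The log2 fold change was −1.55 (SE 0.30, limma adjusted p = 0.00146). Leaving out muscle 2 gave −1.70 (adjusted p = 0.00184), and over all alternatives the adjusted p ran from 1.8e-04 to 0.00980.

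The 3 probe sets of Ppargc1a did not rank the arrays alike. Tumour 4 was the highest tumour by 1434099_at (557) and by 1434100_x_at (635), which were designed from the same sequence record, but the lowest by 1460336_at (66.8, below its floor). By 1460336_at the values were 201, 129, 109, 66.8 and 75.2 in tumours 1 to 5, against 370.4, 871, 565 and 298 in muscles 1 to 4. Among the muscles, the forelimb array was highest by the first pair and the intercostal array by the third. All 3 probe sets were called lower when probe sets were tested as separate features, where 16.5% of 17433 probe sets were called lower and 25.7% higher. Their log2 fold changes were −1.55, −1.51 and −2.01. In tumour 4, 1434099_at stood at 49.6% of the muscle mean and 1460336_at at 12.7%, where the sum of skeletal muscle markers stood at 0.126%. The part of muscle transcripts in these readings was not tested.

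Ppargc1b, the constitutive partner coactivator, fell less evenly. Probe set 1449945_at read 787, 313, 283, 346 and 337 in tumours 1 to 5, against 908, 1135, 843 and 599 in muscles 1 to 4. Tumour 1 overlapped with muscle, at 90.3% of the muscle mean, while the other tumours were at 32.5% to 39.7%. The means were 413 ± 210.5 (SD, n = 5) and 871 ± 220.5 (SD, n = 4), and the log2 fold change was −1.12 (SE 0.31, limma adjusted p = 0.0114). It was −1.37 without tumour 1 and −0.98 (adjusted p = 0.0349) without muscle 2. Without both arrays that carried brown fat transcripts, muscle 2 and tumour 2, it was −0.91 and the call ended (adjusted p = 0.0683). The adjusted p ran from 6.6e-04 to 0.0683 over the alternatives.

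**Figure D3:**
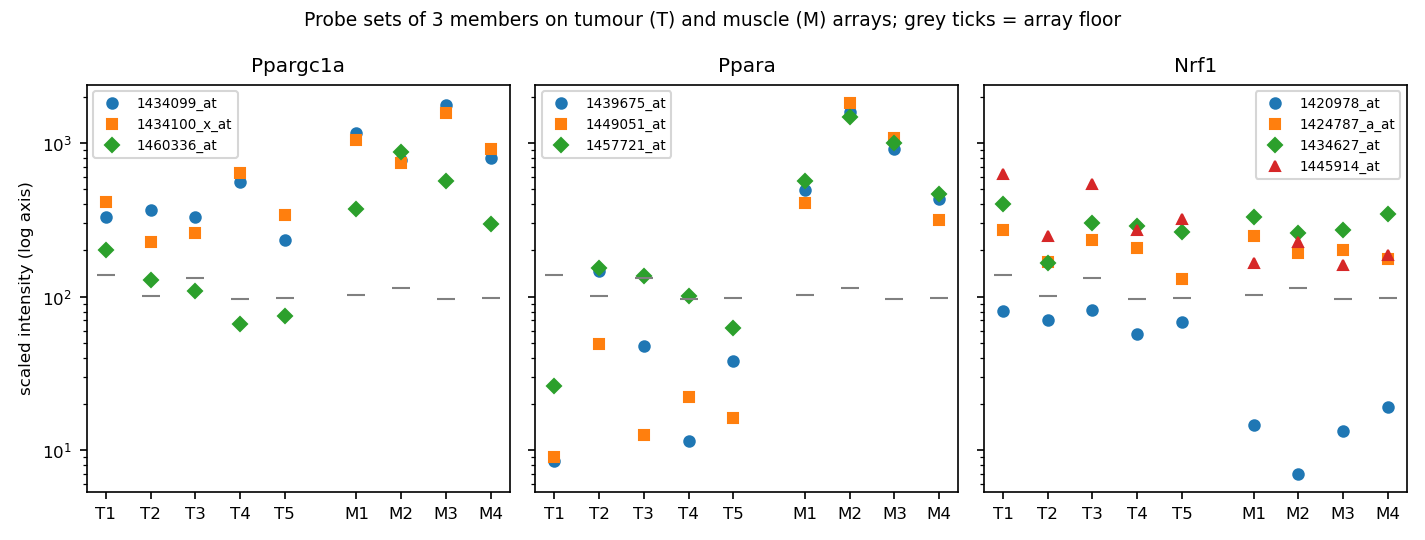
Scaled intensity (log axis) of every probe set of Ppargc1a, Ppara and Nrf1 on tumour (T1 to T5) and muscle (M1 to M4) arrays, with array floors as grey ticks. The 3 Ppara probe sets give the same order of muscles, tumour 4 is highest or lowest for Ppargc1a by probe set, and 1445914_at of Nrf1 alone is above the floor and higher in all tumours.

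The estrogen-related receptors are orphan nuclear receptors through which the coactivators reach respiratory genes. Esrrg, which is found in oxidative muscle and heart, was at 511, 496, 277, 418 and 722 in tumours 1 to 5 by 1455267_at, against 913, 1113, 1139 and 638 in muscles 1 to 4. Tumour 5 lay above muscle 4, so the groups overlapped. Tumours averaged 485 ± 162 (SD, n = 5) and muscles 951 ± 231 (SD, n = 4). On the log2 scale the difference was −0.98 (SE 0.28, limma adjusted p = 0.0144), or −0.89 (adjusted p = 0.0394) without muscle 2. The call ended under housekeeping centring (−0.77, adjusted p = 0.0752) and without muscle 2 and tumour 2 (−0.91, adjusted p = 0.0581). Its adjusted p ran from 0.00612 to 0.0752. The dimmer probe set 1421747_at, at 78.0 to 194 in tumours and 128 to 206 in muscles, differed by −0.49 and was not called (limma adjusted p = 0.252).

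Esrrb, a receptor known from pluripotent stem cells, was not called. Its brightest probe set, 1441921_x_at, read 136 to 476 in tumours and 226 to 446 in muscles. Tumour 4 was above every muscle, and the other tumours were below all of them. The log2 fold change was −0.53 (95% interval −1.28 to 0.22, limma adjusted p = 0.221), −0.39 without muscle 2 (adjusted p = 0.416), and −0.79 without tumour 4 (adjusted p = 0.0422). By 1436926_at it was 0.14, the opposite sign, and the remaining probe set stayed under the floor on 6 of 9 arrays and was not tested. Over its alternatives the adjusted p ran from 0.0422 to 0.682.

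Among the PPARs, receptors that fatty acids activate, Ppara was the member with the largest difference. Probe set 1457721_at read 26.0, 153, 136, 101 and 62.6 in tumours 1 to 5, against 565, 1475, 997 and 464 in muscles 1 to 4. Every tumour was far below every muscle, and 3 of 5 tumours reached the floor. The means were 95.8 ± 52.3 (SD, n = 5) and 875 ± 462 (SD, n = 4), or 676 ± 283 (SD, n = 3) without muscle 2. The log2 fold change was −3.01 (SE 0.46, limma adjusted p = 3.3e-04), a size that the floor limits. Leaving out muscle 2 gave −2.72 (adjusted p = 0.00130), and the adjusted p ran from 1.1e-04 to 0.00178 over the alternatives.

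The other Ppara probe sets gave the same picture with lower tumour readings. By 1449051_at the tumours read 8.99, 49.1, 12.6, 22.2 and 16.1, all below the floor, against 409, 1825, 1082 and 316 in muscles 1 to 4. This made the tumours at least 6.37-fold lower, taken against the floor. Only the muscles brought this probe set through the filter on dim genes. Its limma adjusted p of 8.3e-05 over probe sets is therefore no further support. By 1439675_at they read 8.49 to 147 against 434 to 1602, with tumour 2 above the floor. All 3 probe sets put muscle 2 first and muscle 3 second among the muscles, and the tumour with the most brown fat transcript, tumour 2, first among the tumours. Muscle 3 had no Ucp1 or Cidea above the floor and read 997 by 1457721_at, and the hind limb arrays read 565 and 464. The part of brown fat in the level of muscle 2 was not tested.

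Ppard, a PPAR known to drive fatty acid use in muscle, was not called. Probe set 1439797_at read 189, 218, 212, 83.6 and 109 in tumours 1 to 5, against 341, 185, 188 and 339 in muscles 1 to 4. The hind limb arrays were above every tumour, while the intercostal and forelimb arrays were in the tumour range. The log2 fold change was −0.67 (95% interval −1.43 to 0.09, limma adjusted p = 0.132), or −0.81 without muscle 2 (adjusted p = 0.106). It was called with quantile normalization (−0.87, adjusted p = 0.0476) and with array weights (−0.98, adjusted p = 0.0252), and the adjusted p ran from 0.0252 to 0.298. The second probe set, 1425703_at, read under 20 on all arrays, below the floor, and was not tested.

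**Figure D4:**
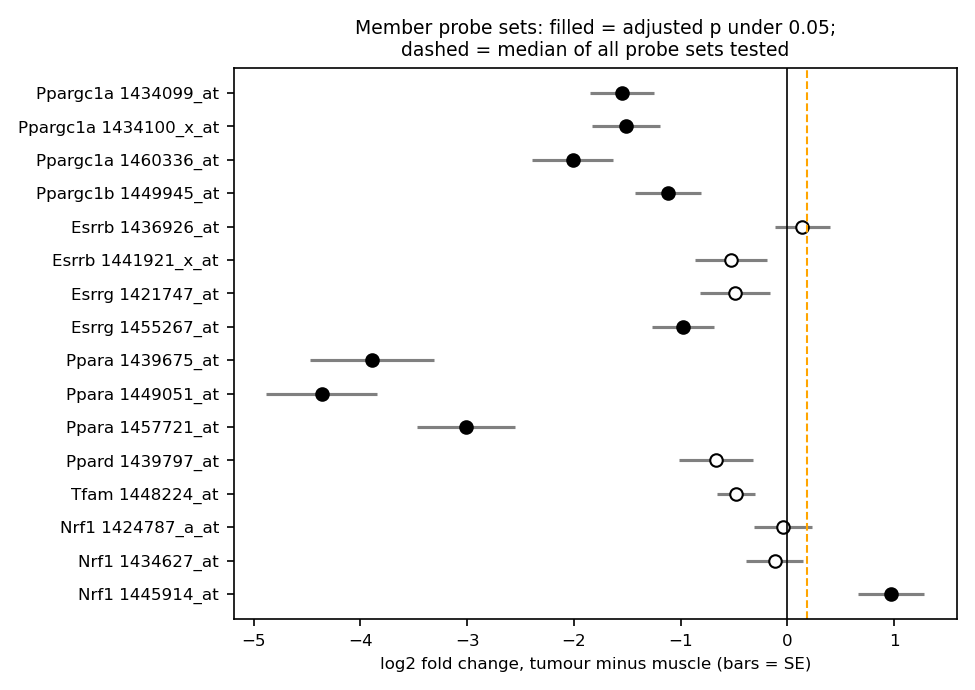
Log2 fold change, tumour minus muscle, with its SE for the 16 member probe sets tested as separate features, and the median of all probe sets as a dashed line. Filled points passed an adjusted p under 0.05: 8 probe sets are lower, 1 of Nrf1 is higher, and 7 were not called.

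Tfam, the mitochondrial transcription factor, was the brightest reading of the group on most arrays and changed least among the called genes. It read 1111, 1565, 1374, 1400 and 1264 in tumours 1 to 5 by 1448224_at, against 1810, 1652, 2187 and 1854 in muscles 1 to 4. The groups did not overlap, but tumour 2 came close to muscle 2. Tumours stood at 1343 ± 169 (SD, n = 5) and muscles at 1876 ± 225 (SD, n = 4). Their log2 difference was −0.48 (SE 0.17, limma adjusted p = 0.0408), or −0.54 (adjusted p = 0.0352) without muscle 2. The call ended without muscle 1 (adjusted p = 0.0796), muscle 3 (0.130), muscle 4 (0.0872), tumour 1 (0.0528), tumour 3 (0.0561), tumour 4 (0.0597) or tumour 5 (0.0758), on the values as deposited (0.0715), without the variance trend (0.0554) and with probe sets as separate features (0.0502). Housekeeping centring gave −0.27 (adjusted p = 0.300), and over all alternatives it ran from 0.0137 to 0.300.

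Nrf1, the factor upstream of Tfam, showed no call by the probe set that represents it. By 1434627_at it read 403, 166, 300.3, 289 and 265 in tumours 1 to 5, against 329, 260.3, 271 and 348 in muscles 1 to 4. The tumours spanned the muscle range on both sides. The log2 fold change was −0.12 (95% interval −0.69 to 0.45, limma adjusted p = 0.728), or −0.19 without muscle 2 (adjusted p = 0.625).

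The Nrf1 probe sets disagreed. By 1445914_at the tumours read 626, 247, 540.5, 272 and 322, against 165, 226, 162 and 188 in the muscles. All tumours were above all muscles, and the log2 difference was 0.97 (SE 0.31; limma adjusted p = 0.0253 over probe sets). By 1424787_a_at it was −0.04 (adjusted p = 0.912). The fourth, 1420978_at, was below the floor on all arrays, at 57.1 to 81.9 in tumours and 7.01 to 19.1 in muscles. Without muscle 4 the brightest probe set became 1445914_at and Nrf1 was called higher (0.98, adjusted p = 0.0463). The adjusted p ran from 0.0463 to 0.961 over the alternatives, and no direction is given for Nrf1.

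Because array scaling largely cancels in a difference between genes on the same array, 3 pairs were compared. The test was a two-sided exact permutation test over all splits of the arrays. With 16 added to each reading, scaling cancels less for low readings, such as Ppara in tumour 1 (26.0). Pairs with Esrra were not analysed here. Ppara was set against Ppard, and the log2 difference between their readings averaged −0.75 ± 0.93 for tumours (SD, n = 5) and 1.59 ± 1.20 for muscles (SD, n = 4). Ppara thus changed by −2.34 more than Ppard, with an exact p = 0.00794, the smallest that the splits can give, and adjusted p = 0.0238 over the 3 pairs. Ppargc1a changed by −0.44 more than Ppargc1b, which did not pass (exact p = 0.381, adjusted p = 0.381). Tfam against Nrf1 gave −0.36 (exact p = 0.310, adjusted p = 0.381), or −0.58 without tumour 2 (exact test, adjusted p = 0.0429). With all probe sets of a gene averaged it was −1.08 (exact test, adjusted p = 0.0238). That average took in the Nrf1 probe set that was below the floor on all arrays, whose part was not tested.

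Over the 8 genes, the median log2 level relative to the muscle mean was −0.74, −0.84, −1.06, −1.01 and −1.15 in tumours 1 to 5. The skeletal muscle markers had medians of −4.19, −5.50, −6.80, −9.33 and −2.56 on the same scale. From highest to lowest, the PGC1 group ran tumours 1, 2, 4, 3 and 5, and the muscle markers ran tumours 5, 1, 2, 3 and 4. The part of muscle transcripts in the group's values was not tested. Without tumours 1 and 5, a choice made after seeing the data, 4 of the 8 genes were called lower, beside 18.2% of all genes. The log2 fold changes were −2.48 for Ppara, −1.34 for Ppargc1a, −1.40 for Ppargc1b and −1.23 for Esrrg.

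The genes of the wider network were named by the size of their change. Without muscle 2, 39 of 39 such genes kept their sign and 36 kept their call, with Nr4a3, Creb1 and Tomm20 the exceptions. The genes were picked as called in the fit that held muscle 2, so these counts do not test its part. Genes that the coactivators are known to act on were mostly lower. Of 16 fuel genes of the PPARs and estrogen-related receptors tested, 15 were lower and 1 higher. Their median log2 fold change was −1.98, beside 0.23 for all genes, of which 18.0% were lower and 30.1% higher. Pdk4, a kinase that restrains pyruvate oxidation, changed by −4.35 (−5.40 without tumours 1 and 5), and Slc2a4, the insulin-responsive glucose transporter, by −4.26. Plin5, a lipid droplet protein of oxidative tissue, changed by −4.15, or −2.73 with only probe sets ending in _at. Ucp3, a mitochondrial carrier of muscle, changed by −3.16. The higher gene was Angptl4, an inhibitor of lipoprotein lipase and a PPAR target. It read 959, 1293, 744, 1550 and 1993 in tumours 1 to 5, against 53.7, 1425, 15.7 and 27.1 in muscles 1 to 4. Only muscle 2 had Angptl4 above the floor among the muscles. Its log2 fold change was 3.53 (limma adjusted p = 0.00858), and 2.94 without muscle 3. Without muscle 2 every muscle was below the floor, and Angptl4 was at least 12.4-fold higher in tumours, taken against the floor. In that fit Angptl4 passed the filter on dim genes through the tumours alone. Its limma adjusted p of 2.1e-05 is therefore no further support.

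Respiratory genes that estrogen-related receptors and NRF1 are known to act on were also mostly lower. Of 19 tested, 17 were lower, 1 was higher and 1 was not called, with a median of −1.90. The shares of all genes were again 18.0% lower and 30.1% higher. Cycs, cytochrome c, read 5573, 8889, 4653, 4103 and 6261 in tumours 1 to 5, against 35450, 44048, 37402 and 35477 in muscles 1 to 4, a log2 fold change of −2.74. Uqcrfs1, a subunit of complex III, changed by −2.97 and Sdhb, of complex II, by −2.33. The muscle isoform Cox6a2 changed by −5.55, or −4.73 without tumour 4 and −7.09 without tumours 1 and 5. Sco1, a copper chaperone for cytochrome oxidase, was higher by 0.59 (limma adjusted p = 0.0494). That call ended without any one of muscles 1, 3 and 4 and tumours 2 to 5, with adjusted p from 0.0569 to 0.128, and after median centring (0.203). In each tumour the median of the list was between −2.16 and −1.59, with tumour 4 at −1.99.

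**Figure D5:**
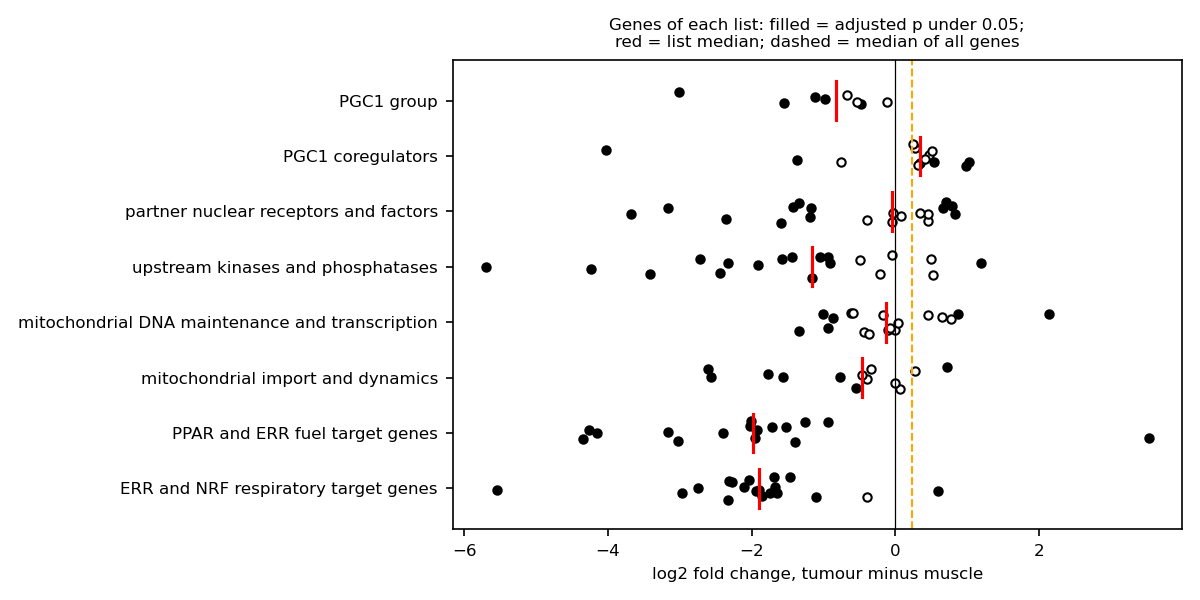
Log2 fold change, tumour minus muscle, of each gene tested in the PGC1 group and in 7 lists of its network, filled where the adjusted p was under 0.05, with the list median in red and the median of all genes (0.23) dashed. The medians of fuel and respiratory targets lie at −1.98 and −1.90, and the coregulators lie near the median of all genes.

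In the machinery that maintains and transcribes mitochondrial DNA, the calls went both ways. Of 18 genes, 5 were lower, 2 higher and 11 not called, with a median of −0.13, where 18.0% of all genes were lower and 30.1% higher. After housekeeping centring the balance turned to 2 lower and 4 higher, and without muscle 2 it was 4 lower and 3 higher. Tfb2m, which starts mitochondrial transcription with Tfam, read 2315, 1961, 1181, 686 and 671 in tumours 1 to 5, against 2879, 3027, 3227 and 3134 in muscles 1 to 4. Its log2 fold change was −1.34 (SE 0.36, limma adjusted p = 0.00994). Polrmt, the mitochondrial RNA polymerase, changed by −1.01, a call that ended without muscle 1 (adjusted p = 0.0567) or muscle 3 (0.0595). Tefm, a transcription elongation factor of mitochondria, changed by −0.94, a call that ended after housekeeping centring (−0.73, adjusted p = 0.0787). Polg, the mitochondrial DNA polymerase, changed by −0.87. Its call ended after housekeeping centring (adjusted p = 0.0873), without the filter on dim genes (0.0552), without tumours 1 and 5 (0.118), and without muscle 1, 3 or 4 or tumour 1, 4 or 5 (0.0515 to 0.0941). Primpol, a primase-polymerase of nucleus and mitochondria, was higher by 2.14, at 313 ± 115 (SD, n = 5) in tumours. Every muscle was below the floor, which makes it at least 2.84-fold higher. Primpol passed the filter on dim genes through the tumours alone. Mterf1a, a mitochondrial termination factor, was higher by 0.87, a call that ended after median centring (0.68), after quantile normalization (0.63) and without muscle 4 (0.71, limma adjusted p = 0.0507).

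In the list of mitochondrial import and dynamics, 6 of 13 genes were lower, 1 was higher and 6 were not called, with a median of −0.46. Over all genes the shares were 18.0% lower and 30.1% higher. Mfn2, a fusion protein of the outer membrane, averaged 655 ± 303 for tumours (SD, n = 5) and 3681 ± 553 for muscles (SD, n = 4), a log2 fold change of −2.61. Averaging its probe sets gave −1.72. Mfn1, its paralogue, changed by −1.77. Hspa9, the import motor chaperone, changed by −1.56 and Chchd3, of the inner membrane cristae junctions, by −2.57, or by −0.78 and −0.98 with their probe sets averaged. The higher gene was Tomm20, an import receptor, at 0.72 (limma adjusted p = 0.0312). Its call ended without any one of muscles 1 to 4 and tumours 1 to 3, with adjusted p from 0.0546 to 0.0773, and after median centring (0.0811).

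The list of genes upstream of PGC-1 alpha held kinases, phosphatases and the coactivators Crtc2 and Crtc3. Of its 19 genes tested, 13 were lower, 1 was higher and 5 were not called. Their median was −1.16, beside 0.23 for all genes, of which 18.0% were lower and 30.1% higher. Crtc2, Crtc3 and the kinase Sik1 were among those not called. AMPK is an energy sensor made of catalytic, scaffold and nucleotide-binding subunits. The catalytic subunit Prkaa2 read 531, 452, 515, 394 and 994 in tumours 1 to 5, against 7626, 3737, 6492 and 7022 in muscles 1 to 4, a log2 fold change of −3.42. The nucleotide-binding subunit Prkag3 of fast muscle changed by −5.70, or −6.41 without muscle 2, and was above the floor in 1 tumour. Of the scaffold subunits, Prkab2 changed by −2.72 and Prkab1 was higher by 1.20, with means of 811 ± 93.1 for tumours (SD, n = 5) and 346 ± 55.8 for muscles (SD, n = 4). Camk2a, a calcium-dependent kinase, changed by −4.24, or −2.03 with its probe sets averaged and −5.07 without tumours 1 and 5.

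Coregulators of PGC-1 had 2 of 13 lower, 3 higher, 8 not called and a median of 0.34, beside 0.23 for all genes. Both counts lie near or under the shares of all genes, 18.0% lower and 30.1% higher. Lpin1, which assists PGC-1 alpha on PPAR alpha targets and makes diacylglycerol, averaged 608 ± 101 for tumours (SD, n = 5) and 10174 ± 1512 for muscles (SD, n = 4), a log2 fold change of −4.03. Nrip1, a corepressor of oxidative genes, changed by −1.37. The acetyltransferase genes Ep300 and Crebbp were higher by 1.02 and 0.99, but Crebbp was not called when its probe sets were averaged (0.27, adjusted p = 0.440). Ncoa6 was higher by 0.54, and its call ended without muscle 3, muscle 4 or tumour 4 (adjusted p from 0.0635 to 0.0908). It also ended on the deposited values (0.193), after median centring (0.231), with quantile normalization (0.108) and without muscle 2 and tumour 2 (0.0689).

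Among 19 partner receptors and factors, 8 were lower, 4 higher and 7 not called, with a median of −0.04. The shares of all genes were 18.0% lower and 30.1% higher, so the higher count lies under its share. Rxrg, a retinoid X receptor that pairs with PPARs, averaged 99.9 ± 45.7 for tumours (SD, n = 5) and 1368 ± 287 for muscles (SD, n = 4), a log2 fold change of −3.68. Klf15, a factor of muscle lipid use, changed by −3.17 and Nr4a1, an exercise-induced orphan receptor, by −2.36. Hnf4a, a receptor best known from liver, changed by −1.59. The higher genes were Nr4a3, Yy1, Creb1 and Gabpb1, at 0.83, 0.79, 0.70 and 0.66. After median centring 0 of these 4 calls held, and Yy1 was at 0.01 with its probe sets averaged. Calls also ended for Nr4a3 without muscle 1, muscle 2, tumour 1 or tumour 2 (adjusted p from 0.0527 to 0.0706). The call of Creb1 ended without muscle 2, 3 or 4 or tumour 2 or 3 (0.0671 to 0.0840). That of Gabpb1 ended without muscle 1 or 4 or tumour 3, 4 or 5 (0.0648 to 0.108).

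The genes whose pattern over the 9 arrays was most like that of a member were found by the smallest root mean square difference of log2 levels, each centred on its own mean. For Ppargc1a they were Cdip1 and Pi16, at 0.27 and 0.31 log2 units. For Ppargc1b they were Lrrc3b (0.23) and Adamts3 (0.24), and for Ppara they were Alas2 (0.54) and Rcan2 (0.56). Dlst, a subunit of the oxoglutarate dehydrogenase complex, and Trap1, a mitochondrial chaperone, were nearest to Esrrg, both at 0.23. Ecm1 and C030006K11Rik were nearest to Esrrb, Ccdc88c and Timmdc1 to Ppard, Phf2 and Lemd3 to Tfam, and Golga2 and Tbc1d22b to Nrf1.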

How the data were processed

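The deposited table held MAS5 signal intensities on a linear scale for 30508 probe sets on 9 arrays. MAS5 is named in the submitters' processing notes, and its version, scaling target and background step are not given in the sources used here. Array trimmed means (2% at each end) ran from 430.0 to 609.8, so arrays were scaled to their common mean, with factors from 0.909 to 1.289. Of the probe sets, 25581 had 1 gene symbol in the platform annotation, and others were left out. For a gene with several probe sets the brightest on average stood for it. Genes were tested if at least 4 arrays reached the floor, the 40th percentile. Levels were log2(scaled intensity + 16). Two-sided tests of tumour minus muscle used limma (3.58.1, R 4.3.3; lmFit, then eBayes with trend). "At least" folds are against the floor.

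The members and lists were chosen with earlier results of these data known. All members were named, and for each list up to 4 called genes in each direction with the largest change. For each member the 2 most similar genes were named. Adipoq, Cox8b and Myh1 were named after their values were seen. Alternatives were other scalings, pseudocounts, filters, probe set choices, fits and arrays left out.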

Additional observations from a re-analysis of the deposited data

Results flagged for a closer look

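Among the groups of tested member probe sets, 1 of 32 held an array far from the rest of its group by Dixon's test, where chance flags about 1 in 20. Ppargc1b read 787 in tumour 1, with a gap to the nearest tumour of 0.81 of the range of the 5 tumours on the log2 scale. The other tumours read 283 to 346, and the muscles read 599 to 1135. Tumour 1 also had the highest Nrf1 readings by 3 probe sets and the largest scaling factor, 1.289. The part of these in the Ppargc1b reading was not tested.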

How the results depend on the processing

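No paired analysis was possible because the labels give no replicate numbers that the tumours and muscles share. The calls of Ppara and Ppargc1a held under the 27 alternatives run for each, with log2 fold changes of −3.75 to −2.48 and −1.76 to −1.31. The count of lower members was 4 to 5 with 1 array left out, 3 after housekeeping centring (ribosomal and proteasome genes) and 3 without muscle 2 and tumour 2. The shares of all genes called lower were 14.4% to 18.7%, 13.3% and 16.4% in turn. Leaving out those 2 arrays, and tumours 1 and 5, was chosen after seeing the data. The count of higher members was 0 to 1 with 1 array left out, the 1 being Nrf1 through another probe set.

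The sign of Nrf1 turned to 0.08 after housekeeping centring and to 0.60 with probe sets averaged, among them the one below the floor on all arrays. It turned to 0.92, 0.92 and 0.98 without muscle 1, 3 or 4, where another probe set was taken, and to 0.05 without tumour 2. With 1 array left out it ran between −0.25 and 0.98. The sign of Esrrb turned to 0.14 with only probe sets ending in _at. The change of Ppara less that of Ppard ran from −2.72 to −1.91 with 1 array left out, with exact adjusted p of 0.0536 without any one muscle and 0.0857 without tumour 1, 3, 4 or 5. Those are the smallest values that 1 pair alone can reach at that size, so they say nothing about stability. That of Tfam less Nrf1 ran from −0.58 to −0.16, and was −1.08 with probe sets averaged.

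Lower counts moved over 1.5 times for mitochondrial DNA genes, to 8 with quantile normalization, 2 after housekeeping centring, 3 with only _at probe sets, 3 without tumours 1 and 5 and 2 to 5 with 1 array left out. For partner factors the lower count was 5 with probe sets averaged. Counts of higher genes were small and moved more. For partner factors they were 1, 0 and 1 with deposited, median-centred and quantile values, 1 with probe sets averaged, 1 without muscle 2 and tumour 2, 2 without tumours 1 and 5 and 2 to 4 with 1 array left out. For coregulators 6 were higher after housekeeping centring, and 2 to 4 with 1 array left out. For kinases 2 were higher after housekeeping centring, the 60th percentile floor, array weights, the CC17 pair averaged or without muscle 2 and tumour 2, and 1 to 2 with 1 array left out. For mitochondrial DNA genes 1 was higher with median-centred or quantile values or the 60th percentile floor, 4 after housekeeping centring or array weights, and 1 to 4 with 1 array left out. For import 0 were higher with deposited, median-centred or quantile values, only _at probe sets, the CC17 pair averaged or without muscle 2 and tumour 2, and 0 to 1 with 1 array left out. For fuel genes 0 were higher with only _at probe sets, where Angptl4 was not represented. For respiratory genes 0 were higher under 10 such alternatives and 0 to 1 with 1 array left out. The causes were not tested. Intensities near the floor limit Ppara, Ppard, Esrrb, Prkag3, Primpol and Angptl4, and also Camk2a, Plin5, Hnf4a, Rxrg and Klf15, among others. Camk2a, Plin5 and Hnf4a reached the floor in 2 tumours, and Rxrg and Klf15 in 3. With a pseudocount of 64, the log2 fold change of Camk2a moved from −4.24 to −3.62 and that of Plin5 from −4.15 to −3.53. That of Prkag3 moved from −5.70 to −4.81 and that of Angptl4 from 3.53 to 2.78.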

Other observations

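Pparg, the PPAR of fat cells, was highest in muscle 2 and, among tumours, in tumour 5, the arrays that were also highest for Adipoq, a hormone of fat cells. Pparg read 11.1, 255, 6.24, 136 and 346 in tumours 1 to 5, against 65.5, 1342, 11.3 and 18.0 in muscles 1 to 4, with a log2 fold change of −0.04 (SE 1.21, limma adjusted p = 0.983). Adipoq read 134, 4218, 95.1, 4920 and 12462 in the tumours, against 4557, 40935, 2651 and 3464 in the muscles. The fuel gene list had a median of 0.98 in muscle 2 relative to the muscle mean, against −0.48 to −0.17 in the other muscles, while the respiratory list had 0.06 in muscle 2 and −0.04 to 0.04 in the others.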
